A study of Drosophila melanogaster with 2 samples.

Results

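The weaker peaks described here are 3496 pooled peak entries of a Brinker-eGFP chromatin immunoprecipitation sequencing (ChIP-seq) experiment that lay below the reproducible peak list and overlapped strong entries of both replicates. The deposited pooled list held 29999 entries, of which 29964 lay on chromosome arms 2L, 2R, 3L, 3R, 4 and X. An entry was counted as a weaker peak when it overlapped no peak of the deposited list thresholded by the irreproducible discovery rate (IDR, a measure of how well peak ranks agree between replicates), and overlapped, by 1 bp or more, 1 of the 10000 highest-signal entries in each of the replicate lists. By this rule the weaker peaks were selected on the pooled signal, the replicate signals and the IDR list, so these values are given below as description and were not tested. They are set against the 3380 IDR peaks on the same arms and against the 22086 remaining pooled entries, which overlapped no IDR peak and missed the top 10000 of at least 1 replicate. The pooled list held background as well as peaks, and the rule asks for an overlap of 1 bp, so membership shows neither binding nor a separate enrichment at that position in each replicate.

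Chromatin came from whole larvae, at the wandering stage of the third instar, of a transgenic line that stably carries brk with GFP fused to its C terminus, with males and females pooled, and was sheared by sonication and precipitated with an anti-GFP antibody. The 2 biological replicates, numbered 3 and 4 in the labels, form 1 group with 1 genotype and no untreated or mutant counterpart, so there is no comparison of conditions. Brinker is expressed in some tissues and not in others, and a whole-larva sample cannot tell a site bound strongly in few cells apart from a site bound weakly in many. The fusion protein, not the untagged protein, was precipitated.

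Brinker is a sequence-specific transcriptional repressor of the Decapentaplegic (Dpp) pathway, the BMP pathway of flies. Where Dpp signalling is low, Brinker keeps Dpp target genes off by recruiting the corepressors Groucho and CtBP, and where Dpp is high, the Smad protein Mad and the zinc-finger protein Schnurri shut brk itself down. The Brinker DNA-binding domain recognises the motif GGCGYY, in which Y is C or T, and this motif overlaps some of the GC-rich sites that Mad binds.

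The DNA under the weaker peaks is shown first at the 5 strongest weaker peaks that held GGCGYY within 50 bp of the summit on arms other than the right arm of the second chromosome. Each sequence is the reference Release 6 genome (dm6, RefSeq), 101 bp centred on the summit, plus strand, written 5′ to 3′, with the match to GGCGYY in capitals. RpL37A encodes a protein of the large ribosomal subunit, and its summit lay 226 bp from the start site at chr2L:5070681-5070781. The CG18547 peak lay 200 bp from the start site of that gene at chr3R:11980140-11980240. The nxf4 peak lay 93 bp from the start site at chr3R:7346587-7346687, in a gene of the nuclear RNA export factor family. The peak of br, which encodes the Broad zinc-finger proteins of the ecdysone response, lay 291 bp from a start site at chrX:1621967-1622067. The remaining peak was intronic at chr2L:18464343-18464443, and its nearest start site was that of the microRNA gene mir-100, 7041 bp away.
RpL37A: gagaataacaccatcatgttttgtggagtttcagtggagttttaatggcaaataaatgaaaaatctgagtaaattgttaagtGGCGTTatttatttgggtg
CG18547: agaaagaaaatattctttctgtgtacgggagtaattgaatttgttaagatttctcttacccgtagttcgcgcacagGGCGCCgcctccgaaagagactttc
nxf4: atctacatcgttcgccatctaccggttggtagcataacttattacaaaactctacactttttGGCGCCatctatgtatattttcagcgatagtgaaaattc
br: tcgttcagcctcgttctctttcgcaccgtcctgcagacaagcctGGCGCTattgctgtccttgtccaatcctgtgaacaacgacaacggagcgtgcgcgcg
mir-100: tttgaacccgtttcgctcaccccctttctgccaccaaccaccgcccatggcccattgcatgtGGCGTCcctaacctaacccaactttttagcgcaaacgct

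The next 2 sequences are the strongest weaker peaks without a match, shown because most weaker peaks had none. The lace peak lay in an intron at chr2L:15500495-15500595, 1418 bp from the start site of lace, which encodes a subunit of serine palmitoyltransferase. The other was intronic at chrX:12734962-12735062, 4059 bp from the start of lncRNA:CR43963. Both are rich in A and T, with 26.7% and 23.8% GC over the 101 bp shown.
lace: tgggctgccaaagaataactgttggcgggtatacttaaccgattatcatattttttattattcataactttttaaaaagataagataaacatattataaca
lncRNA:CR43963: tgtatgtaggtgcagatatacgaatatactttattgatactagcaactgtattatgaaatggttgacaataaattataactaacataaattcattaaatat

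The last sequences are the strongest weaker peaks of the known target or pathway genes that had no IDR peak. The pnr peak was intronic at chr3R:16036129-16036229, the Ubx peak was intronic at chr3R:16702912-16703012, and the daw peak at chr2L:2805199-2805299 lay 12 bp from the daw start site. The peak counted for Ance at chr2L:13904690-13904790 lay 79 bp from the start of its neighbour Smg5 and 905 bp from that of Ance. None of these 4 stretches held GGCGYY, which says only that the letters are absent from these windows. Their GC content ran from 20.8% at pnr to 58.4% at daw.
pnr: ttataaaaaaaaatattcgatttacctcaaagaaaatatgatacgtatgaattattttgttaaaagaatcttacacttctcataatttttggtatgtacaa
Ubx: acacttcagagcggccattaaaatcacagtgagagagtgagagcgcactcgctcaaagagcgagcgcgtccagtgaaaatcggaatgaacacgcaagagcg
daw: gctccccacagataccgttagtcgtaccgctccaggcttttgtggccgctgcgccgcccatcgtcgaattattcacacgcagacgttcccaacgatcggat
Ance, at Smg5: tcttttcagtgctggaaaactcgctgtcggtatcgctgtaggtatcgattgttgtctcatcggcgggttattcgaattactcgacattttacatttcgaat

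The cut between the lists fell at 1 pooled signal. Signal is the score the deposited lists give each entry, on no stated scale. A replicate signal given for a weaker peak is that of the strongest overlapping entry in the top 10000 of the replicate. A replicate summit distance is to the nearest summit among these overlapping entries, which can belong to another entry. At tank, for example, an entry with a pooled signal of 36.1 had 117.1 in replicate 3 and 127.5 in replicate 4, with the nearest summits 193 and 153 bp away. The strongest weaker peak, in lace, had a pooled signal of 82.5493, and the strongest of the remaining entries had 82.5017, whereas the lowest IDR peak had 82.5638. The 3380 IDR peaks were the 3380 strongest pooled entries on the arms, so no weaker peak was stronger than any IDR peak. On the replicate side the rule cut at a signal of 26.0185 just inside and 26.0182 just outside the top 10000 of replicate 3, and at 21.7225 inside and 21.7208 outside in replicate 4. The weaker peaks spanned pooled signals of 18.1 to 82.5 with a median of 58.9, against medians of 119 for IDR peaks and 26.8 for the remaining entries. The deposited q-values of the weaker peaks had a median of 0.104 and ran from 0.0363 to 0.702, and 333 of the 3496 were at 0.05 or below, whereas all 3380 IDR peaks were. Of the first 1000 pooled entries below the IDR list 82.2% met the rule, of the first 2000 76.7%, and of the first 5000 51.9%. These shares follow from the signals the rule used and are given as description. The weaker peaks reached down to rank 29852 of the 29964 pooled entries on the arms, so many lay far below the cut.

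Many weaker peaks were flanks of one another. Of the 3496, 1759 stood alone and 1737 overlapped another weaker peak, which left 2595 separate runs, the largest of 4 entries. The 3496 entries rested on 2637 distinct entries of replicate 3 and 2644 of replicate 4, and 1595 of them shared both replicate entries with another weaker peak. Only 51 rested on a replicate entry that also overlapped an IDR peak. In 1751 weaker peaks, 50.1%, the summit lay within 100 bp of the nearest overlapping replicate summit in both replicates. These centred peaks had a median pooled signal of 66.2, against 45.3 for the other 1745. The sog locus shows the pattern. Its entry with a pooled signal of 65.0 had replicate signals of 38.4 in replicate 3 and 29.0 in replicate 4 with summits 11 and 13 bp away. An overlapping sog entry at 21.4 had the same strongest replicate entries, with the nearest replicate summits 215 and 191 bp away.

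The replicate signals of the centred peaks are bounded by the rule from below in each replicate, and the pooled signal, at a median of 0.987 times their sum, is bounded by the IDR cut from above. Across the 1751 centred peaks, within these bounds, Spearman's rho between replicate 3 and replicate 4 was -0.01 and Pearson's r of the log2 signals was -0.04, values that the bounds shape and that do not show how well the replicates agree. Replicate 3 had the higher signal in 1145 of them, and the log2 ratio of replicate 3 to replicate 4 had a median of 0.17 with an SD of 0.43. Signals ran from 26.02 to 69.6 in replicate 3, with a median of 34.3, and from 21.7 to 60.4 in replicate 4, with a median of 31.1. Among the strongest 3413 entries, the length of the whole IDR list, replicate 3 held 90 centred peaks, replicate 4 held 185, and both held 6.

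**Figure D1:**
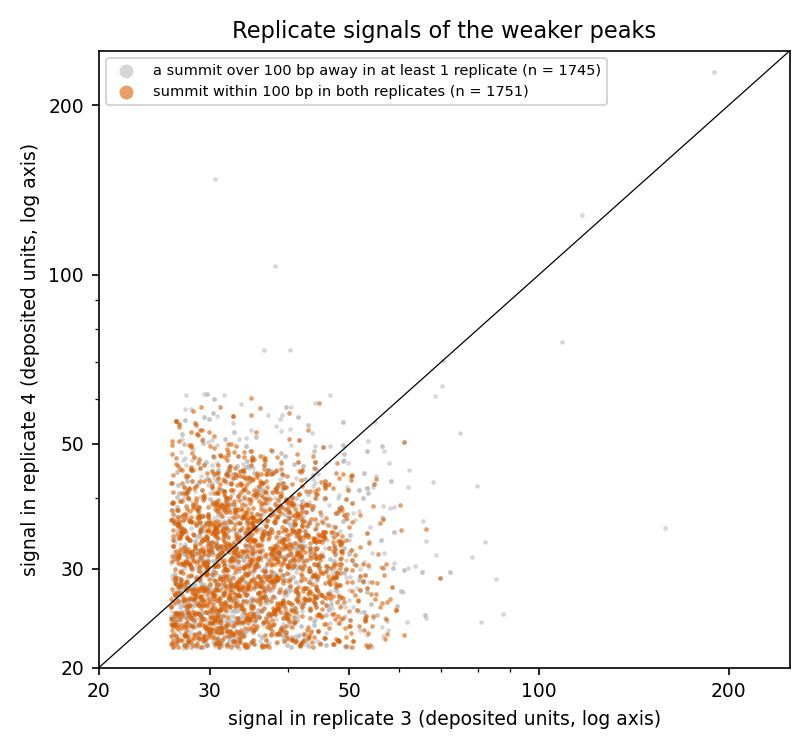
Signal of each of the 3496 weaker peaks in replicate 3 (x axis) and replicate 4 (y axis), in deposited units on log axes, with the line of equal signal. Orange points are the 1751 peaks with the summit of an overlapping entry within 100 bp in both replicates, and grey points are the other 1745. The left and lower edges are the selection limits near 26.02 and 21.7.

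The 25 strongest weaker peaks had pooled signals of 82.1 to 82.5, and 11 lay in promoters, 11 in introns and 3 between genes. A promoter here means a summit within 500 bp of an annotated transcription start site. In 20 of the 25 the summit was centred in both replicates. Promoter peaks in this group lay at Atg3, an enzyme of autophagosome formation, at Fer1HCH, the ferritin heavy chain, at rhea, which encodes talin, at 14-3-3zeta and at the cell adhesion gene Fas2. At rhea the signals were 38.1 in replicate 3 and 39.1 in replicate 4, with both summits exactly on the pooled summit, 65 bp from the start site. The Fas2 peak had 34.4 in replicate 3 and 46.7 in replicate 4, and its replicate 3 summit lay 126 bp away. Intronic peaks lay in lace with 44.5 in replicate 3 and 34.6 in replicate 4, in tutl with 37.6 and 48.8, in ovo with 54.4 and 24.8, and in Dad, tara, corn and CG11029. Neither replicate was the higher one throughout. The nearest start site was that of a long noncoding RNA for lncRNA:CR43963, lncRNA:CR44611, lncRNA:CR46196, lncRNA:CR46015, lncRNA:CR43651 and lncRNA:CR45922. Over all 3496 weaker peaks the nearest start site belonged to a gene that is not protein-coding in 18.7%, against 17.0% of IDR peaks, 21.1% of the remaining entries and 18.3% of all annotated start sites.

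Weaker peaks lay in promoters less often than IDR peaks. Of 3496 weaker peaks 1007 (28.8%, 95% Wilson interval 27.3 to 30.3) had their summit in a promoter, against 1505 of 3380 IDR peaks (44.5%, 42.9 to 46.2), a difference of -15.7 percentage points (Fisher's exact test, two-sided, adjusted p = 4.7e-41 over 14 tests). Promoters took up 13.6% of the arm sequence. Weaker peaks were more often intronic than IDR peaks, at 46.6% against 38.6% (exact test, adjusted p = 6.8e-11), more often intergenic, at 17.7% against 13.8% (adjusted p = 1.7e-05), and more often in 3′ untranslated regions, at 4.38% against 1.12% (adjusted p = 1.2e-16). Coding exons, 13.7% of the arm sequence, held 9 weaker peaks (0.257%) and 2 IDR peaks (0.0592%; exact test, adjusted p = 0.092). The shares in 5′ untranslated regions, 1.03% and 0.828%, and in noncoding exons, 1.17% and 1.01%, did not pass the threshold of 0.05. Annotated transposable elements held 17 weaker peaks (0.486%) and 4 IDR peaks, although they make up 5.94% of the arms. These p-values treat peaks as independent and all peaks come from the same 2 libraries, so they say nothing about larvae in general.

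**Figure D2:**
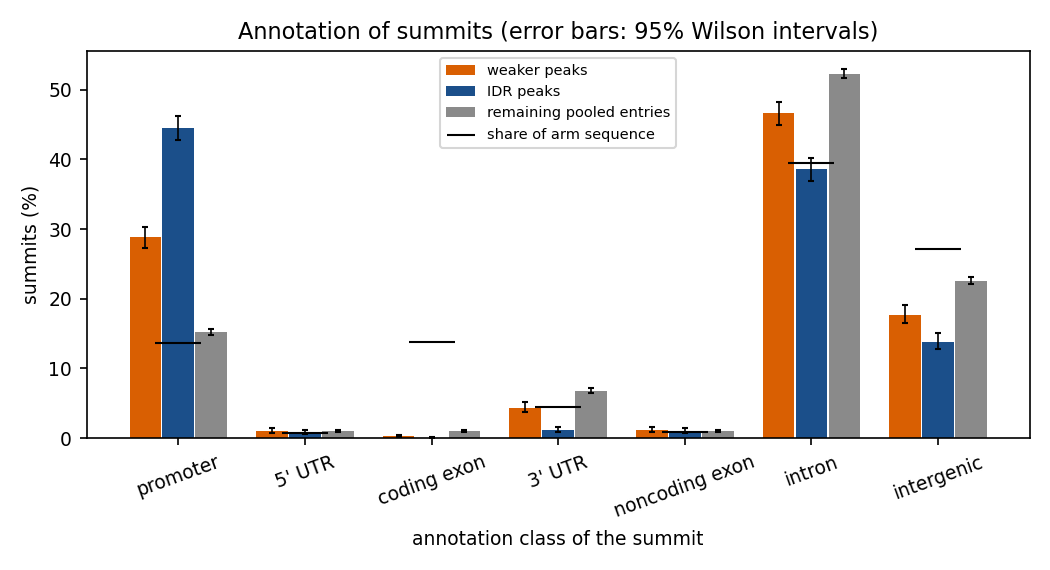
Share of summits in each annotation class for the 3496 weaker peaks, the 3380 IDR peaks and the 22086 remaining pooled entries (y axis, percent; error bars are 95% Wilson intervals), with black marks for the share of arm sequence in the class. In promoters the weaker peaks, at 28.8%, stood between the IDR peaks and the remaining entries, and in coding exons all 3 sets were far under the sequence share of 13.7%.

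Every band of weaker peaks had a lower promoter share than any band of IDR peaks. In 5 bands of equal size from the strongest to the weakest weaker peaks the promoter share was 31.3%, 28.0%, 25.9%, 29.6% and 29.2%, whereas the corresponding IDR bands had 51.3%, 48.4%, 43.2%, 41.9% and 37.9%. Against the weakest IDR band alone, 676 peaks, the difference was -9.07 points (exact test, adjusted p = 8.8e-06). Centred weaker peaks had a promoter share of 26.3%, and those not centred 31.3%. Within promoters the summit was upstream of the nearest start site in 669 of 1007 weaker peaks (66.4%), against 1225 of 1505 IDR peaks (81.4%; Fisher's exact test, two-sided, p = 2.7e-17, a comparison added after the values were seen). The median distance to the start site was 186 bp for the promoter weaker peaks and 161 bp for promoter IDR peaks. Over all classes it was 1523 bp for weaker peaks, 691 bp for IDR peaks and 2804 bp for the remaining entries.

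**Figure D3:**
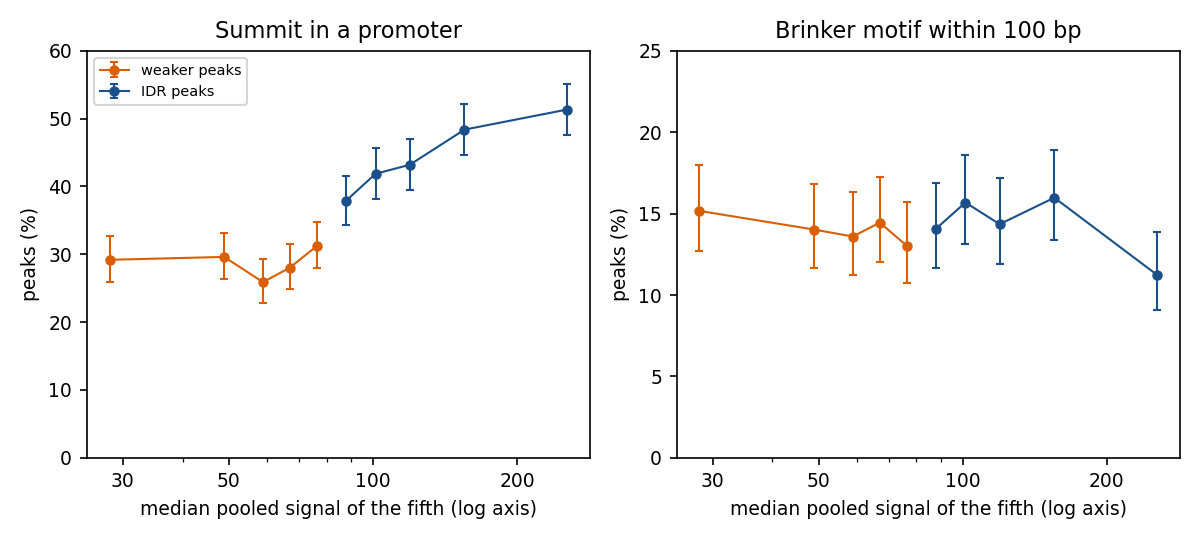
Share of peaks with a summit in a promoter (left) and with GGCGYY within 100 bp of the summit (right), in percent, for 5 bands of equal size of weaker peaks (699 or 700 each) and of IDR peaks (676 each), against the median pooled signal of the band on a log axis; error bars are 95% Wilson intervals. The promoter share lay between 25.9% and 31.3% across the weaker bands and between 37.9% and 51.3% across the IDR bands, and the motif share lay between 11.2% and 16.0% in all 10 bands.

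Against the remaining entries the comparison depended on signal. Over all entries the weaker peaks had the higher promoter share, 28.8% against 15.2%, a difference of 13.6 points (Fisher's exact test, two-sided, adjusted p = 1.5e-76). They were less often intronic, at 46.6% against 52.3%, less often intergenic, at 17.7% against 22.6%, less often in 3′ untranslated regions, at 4.38% against 6.81%, and less often in coding exons, at 0.257% against 1.02%, each past the threshold. With both sets restricted to a pooled signal at or above the weaker median, a comparison added after the data were seen, the 1748 weaker peaks had a promoter share of 29.5% and the 639 remaining entries 36.0%, a difference of -6.47 points (exact test, adjusted p = 0.0078). In this signal range the remaining entries, which missed the top 10000 of at least 1 replicate, thus had the higher promoter share.

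The share of weaker peaks on the X did not differ detectably from that of IDR peaks, and arm 4 held relatively more of them. The X held 13.9% of the weaker peaks on the X and the large autosomal arms, 478 of 3439, against 14.1% of IDR peaks (difference -0.18 points; Fisher's exact test, two-sided, adjusted p = 0.834 over 4 tests) and 15.6% of the remaining entries (adjusted p = 0.0175). Weaker peaks numbered 20.4 per Mb on the X and 27.2 per Mb on the large autosomal arms. The small, heterochromatin-rich arm 4 had the highest density, 42.8 per Mb. Its 57 weaker peaks were 1.89% of those on arm 4 and the large autosomal arms, against 1.20% for IDR peaks (exact test, adjusted p = 0.0473) and 3.29% for the remaining entries (adjusted p = 6.3e-05). These counts hold overlapping entries, and the arm 4 comparison was not recomputed with 1 peak per run. On arm 4, lgs, a Wingless pathway cofactor, had 4 weaker peaks in 2 runs and no IDR peak. The strongest lgs peak lay 3546 bp from the lgs start site and 879 bp from that of CaMKI. The gene apolpp, the lipid carrier precursor of the fat body, had 2 overlapping weaker peaks and no IDR peak. The sex mixture of the pooled larvae is not given, and the X carries fewer copies per cell in males.

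Weaker peaks lay close to IDR peaks. Within 5000 bp of an IDR peak were 1847 of 3496 weaker summits (52.8%), against 34.5% of the remaining entries (difference 18.4 points; Fisher's exact test, two-sided, p = 7.4e-94), and 16.7% of the arm sequence lay that close. The median distance was 4390 bp for weaker peaks and 10558 bp for the remaining entries. The share was 49.97% for centred peaks and 52.6% with 1 peak per overlapping run. It was 52.1% without the weaker peaks whose strongest entry in at least 1 replicate also overlapped an IDR peak. Within 1000 bp were 16.2% of weaker peaks and 8.31% of the remaining entries. With both sets restricted to signals at or above the weaker median the shares were 53.3% and 51.3%, a difference of 1.93 points that did not pass the threshold (exact test, p = 0.405). In this signal range a difference in proximity was not detectable.

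The Brinker motif was no more frequent under weaker peak summits than beside them. GGCGYY, searched on both strands, occurred within 100 bp of the summit in 491 of 3496 weaker peaks (14.0%), against 642 (18.4%) of windows of the same size 1000 bp away (difference -4.32 points; McNemar's exact test, adjusted p = 3.6e-06 over 24 motifs). All windows of 201 bp along the arms held it in 18.8%. IDR summits held it in 14.3%, a difference of -0.22 points (Fisher's exact test, two-sided, adjusted p = 0.863 over 48 tests), and the remaining entries in 11.4% (adjusted p = 1.6e-04). The lower share at summits was not particular to weaker peaks, since flanks of IDR peaks held the motif in 18.1% (McNemar's exact test against IDR summits, adjusted p = 5.7e-05). Weaker summit windows were poorer in G and C than their flanks, at 35.9% ± 7.23 against 40.6% ± 9.12 (SD over 3496 windows each). Among 2645 summit and 2645 flank windows matched on GC content the motif was at 15.7% and 14.8%, a difference of 0.83 points that did not pass the threshold (exact test, adjusted p = 0.633). Within promoters 18.5% of weaker peaks held the motif, against 14.9% of IDR peaks, and within introns 11.5% against 14.4%; these 2 contrasts were not tested. Of the strongest weaker peak counted for each gene, those of Dad, bi and dlp held it within 100 bp, and those of ush, tkv, shn and pnr did not. The one counted for dlp lay 773 bp from the start of CG43121.

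The related motifs were also no more frequent at weaker summits than at flanks. TGGCGYY, which contains GGCGYY, was at 6.44% of weaker summits and 7.49% of flanks (exact test, adjusted p = 0.134), and 7.90% of all windows held it. GRCGNC, a GC-rich Mad motif that overlaps GGCGYY, was at 20.1% of weaker summits, 28.6% of flanks (exact test, adjusted p = 1.3e-15) and 28.9% of all windows. GTCTG, the Smad box, was at 19.9% of summits, 23.0% of flanks (exact test, adjusted p = 0.0037) and 24.1% of all windows. At IDR peaks GRCGNC was likewise at 18.3% of summits and 28.5% of flanks, and GTCTG at 19.2% and 22.9%. The Mad-Med-Shn silencer element was in 0.0286% of weaker summits and 0.0592% of IDR summits. Without a correction for GC content, none of these Dpp-related motifs was more frequent under the weaker summits. In GC-matched windows TGGCGYY was at 6.92% of summits and 6.09% of flanks (exact test, adjusted p = 0.387). There GRCGNC was at 23.1% of both, and GTCTG at 20.9% and 20.2% (exact test, adjusted p = 0.795), so neither difference from flanks remained past the threshold.

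Of the 24 motifs searched, 8 were more frequent at weaker summits than at flanks, 6 less frequent, and 10 did not pass the threshold. The more frequent ones were mostly rich in A and T. Motif tests against flanks and against IDR summits treat windows as independent, although 1737 of the 3496 weaker peaks overlapped another. Values with 1 peak per run were taken for GGCGYY only, with a summit-to-flank difference of -4.20 points. Calls of other motifs near the threshold are therefore less certain. TATAAA, the TATA box, was at 36.5% of summits and 24.1% of flanks (exact test, adjusted p = 5.3e-29), with 21.8% of all windows holding it. Runs of 8 A were at 20.6% and 13.3% (exact test, adjusted p = 1.7e-15), with 10.6% of all windows. ATATATAT was at 6.41% and 3.86%, and TAATTA, the core of many homeodomain sites, at 17.1% and 13.8%. The repeat GAGAGA, bound by the protein GAGA factor, was at 11.96% and 9.15% (exact test, adjusted p = 5.0e-04), against 6.98% of all windows. The motif AGATAAG, which fits GATA factors, was at 4.38% of summits and 2.57% of flanks (exact test, adjusted p = 1.9e-04), against 2.33% of all windows. TATCGATA was at 1.20% of summits and 0.601% of flanks (exact test, adjusted p = 0.0223). TGANTCA, the AP-1 motif, was at 6.06% and 4.75% (exact test, adjusted p = 0.0307). In the GC-matched windows TATAAA, runs of A, GAGAGA and AGATAAG still passed, with GAGAGA at 13.4% and 8.54% (exact test, adjusted p = 3.9e-07), and none of the 6 less frequent motifs did. There ATATATAT did not pass, at 6.05% and 4.84% (exact test, adjusted p = 0.241), and TAATTA turned round, to 15.3% at summits and 16.6% at flanks (exact test, adjusted p = 0.387). TATCGATA and TGANTCA did not pass there either (exact test, adjusted p = 0.387 for each). At IDR peaks, without GC matching, TATAAA was also more frequent at summits than at flanks, at 36.9% against 24.5%.

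Weaker and IDR summits differed in 5 of the 24 motifs. TATCGATA, the DNA replication-related element of housekeeping promoters, was at 1.20% of weaker summits and 3.08% of IDR summits (Fisher's exact test, two-sided, adjusted p = 8.9e-07), with 0.564% of all windows holding it. GAGAGA was at 11.96% of weaker and 14.3% of IDR summits (exact test, adjusted p = 0.0149). More frequent at weaker summits were GCCATT, the core of Pleiohomeotic sites, at 10.98% against 8.46% (exact test, adjusted p = 0.0029), AGGTCA, the core recognised by many nuclear receptors, at 4.20% against 2.93% (adjusted p = 0.0205), and runs of A, at 20.6% against 18.3% (adjusted p = 0.0483). AGGTCA and runs of A did not pass in windows matched on GC content (exact test, adjusted p = 0.0549 and 0.0616), and there TAATTA did, at 17.4% against 14.9% (adjusted p = 0.0361). A match is a stretch of letters, and binding of these factors was not measured.

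**Figure D4:**
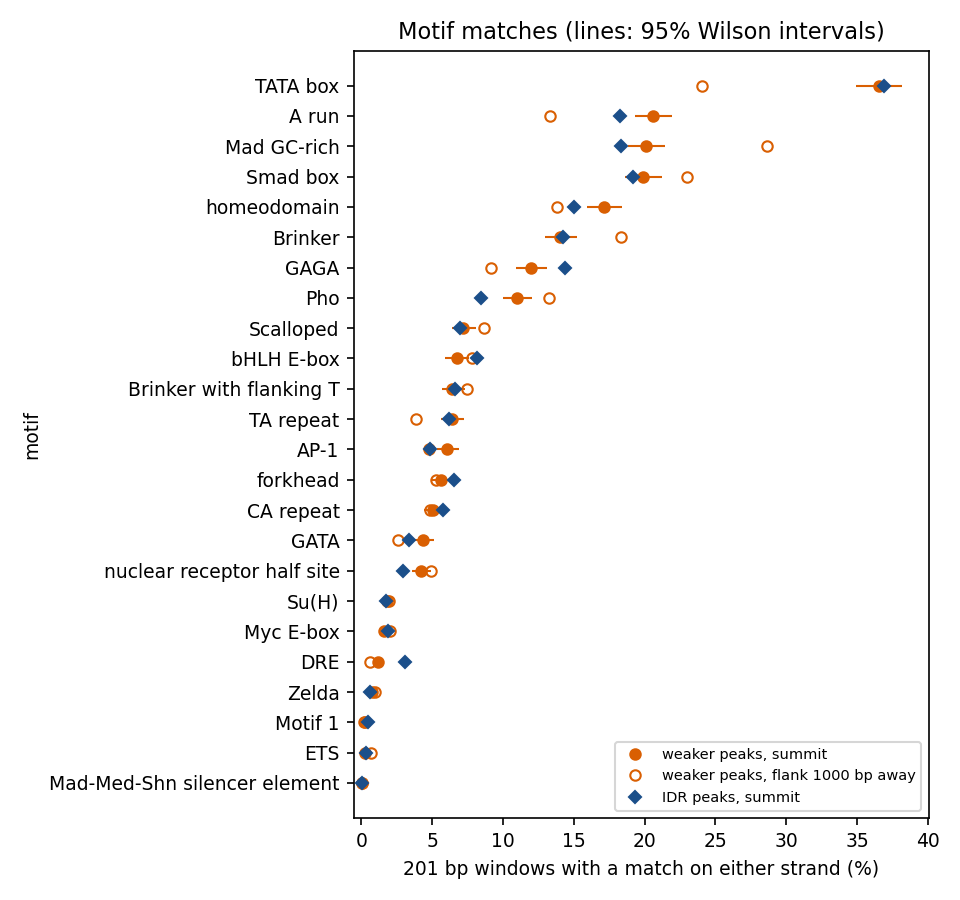
Share of windows of 201 bp with a match on either strand (x axis, percent) for 24 motifs, at weaker peak summits (filled circles, lines are 95% Wilson intervals), 1000 bp from the same summits (open circles) and at IDR summits (diamonds). The TATA box and A runs lay to the right of the flanks at weaker summits, the Brinker, Mad GC-rich and Smad box motifs to the left, and the weaker and IDR summits lay close together except for motifs such as DRE and GAGA.

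Weaker peaks fell mostly on genes that also had IDR peaks. Of 13945 protein-coding genes 2858 had a weaker peak in the gene or within 5000 bp, a background of 20.5% for the counts below. Of these 1723 also had an IDR peak, and 1135 (8.14% of all coding genes) had a weaker peak only. A weaker peak was found at 45.9% of the 3753 coding genes with an IDR peak, which were 26.9% of all coding genes, and at 11.1% of the others. Of the weaker peaks, 72.8% lay in or near a coding gene with an IDR peak. The share of the remaining entries or of arm sequence at such genes was not computed, so 72.8% has no background beside it. Median gene length was 5927 bp for genes with both kinds of peak and 2807 bp for genes with weaker peaks only. It was 2412.5 bp for genes with IDR peaks only and 1890 bp for genes with neither. A part of gene length in these counts was not tested. The genes with most weaker peaks were sbb with 21, drn with 18, bun with 17, E2f1 with 16 and psq with 16, beside 19, 7, 13, 12 and 4 IDR peaks in the same order. As separate runs they counted 13, 11, 12, 11 and 11. sbb encodes the nuclear corepressor Brakeless, bun a TSC-22 family regulator of growth, E2f1 the cell cycle transcription factor, and psq a BTB-domain protein that binds GAGA repeats.

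Among 26 coding genes known as Brinker or Dpp targets 9 had a weaker peak (34.6%, background 20.5%), and 3 of these, pnr, Ance and Ubx, had no IDR peak (11.5%, background 8.14%). ush, a zinc-finger cofactor of GATA proteins expressed under Dpp control, had 5 weaker peaks in 4 runs beside 11 IDR peaks. Some of these 5 had their nearest start site at the neighbouring gene cbt, 2326 to 5041 bp away. The strongest ush entry had a pooled signal of 81.1, with 53.7 in replicate 3 and 33.3 in replicate 4. Dad, the inhibitory Smad, had 2 overlapping weaker entries beside 8 IDR peaks, the stronger at 82.5 with 59.5 in replicate 3 and 25.8 in replicate 4. The replicate 4 summit of that Dad entry lay 252 bp away, so its support is less exact than at ush, where the summits lay 0 and 74 bp away. The growth regulator Myc had 4 weaker peaks up to 68.1 and none of them centred, and bi, the wing gene also called optomotor-blind, had 2 centred ones up to 67.7. sog, a secreted Dpp antagonist, had 3 up to 65.0, and the single Doc1 peak, at 46.0, lay 145 bp from the start of the neighbouring gene Argk2.

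The 3 targets without an IDR peak had modest signals. pnr, a GATA factor of the dorsal thorax, had 2 centred peaks. The stronger pnr peak had 62.2 in the pool, 31.8 in replicate 3 and 29.1 in replicate 4, and lay in an intron 1593 bp from the pnr start site and 30912 bp from the nearest IDR peak. Ubx, the Hox gene of the haltere, had 2 overlapping entries, the stronger at 59.6 with 33.0 in replicate 3 and 36.9 in replicate 4. Its replicate 4 summit lay 255 bp away, and its pooled summit was 31464 bp from the Ubx start site and 17165 bp from that of asRNA:PS4. Ance, a peptidase gene induced by Dpp, had 1 entry at 50.6, and its summit was nearer to Smg5 than to Ance. The strongest replicate entries that overlapped it had 85.3 in replicate 3 and 28.8 in replicate 4. The nearest replicate summits lay 166 and 36 bp away, so 85.3 cannot be read as the replicate 3 signal at the pooled summit. Of these 3 genes only pnr had both replicate summits within 100 bp of the pooled one. No weaker peak was found at brk, wg, vg, salm, salr, al, nab, tup, zen, lab, tld, bap, rho, vn, magu, Doc2 or Doc3.

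In the Dpp pathway 10 of 32 coding genes had a weaker peak (31.3%, background 20.5%), and only daw had a weaker peak and no IDR peak (3.13%, background 8.14%). Of the ligand genes, dpp, gbb, scw, myo, mav and Actbeta had none. daw, an Activin-type ligand, had 2 overlapping entries at its own promoter, the stronger at 52.2 with 40.4 in replicate 3 and 21.8 in replicate 4, and neither entry was centred. Of the receptors tkv, the type I Dpp receptor, had 7 weaker peaks in 5 runs beside 8 IDR peaks, whereas put, sax, wit and babo had none. The strongest tkv peak was centred, at 74.98 in the pool, 42.5 in replicate 3 and 32.2 in replicate 4. Among extracellular regulators dlp and dally, glypicans that shape Dpp spread, had 8 and 2, with the strongest at 78.2 and 75.9. The strongest peak counted for dlp was intergenic, 39063 bp from the dlp start site and 773 bp from that of CG43121. That counted for dally lay 54590 bp from the dally start site and 6538 bp from that of CG43169. The gene cv-2, of a BMP-binding protein, had 2 up to 72.8. The nuclear effectors Mad and shn had 3 and 10 weaker peaks. The strongest shn peak had 77.3 in the pool, 43.1 in replicate 3 and 30.1 in replicate 4, and lay 536 bp from an IDR peak. lola, a BTB zinc-finger gene kept in the pathway list, had 9 up to 71.0, and Med, Smox, Smurf, CtBP, gro, Nup44A, tsg, cv and tok had none.

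In the other gene lists the counts are set beside the background shares of 20.5% for a weaker peak and 8.14% for a weaker peak without an IDR peak, with no test. Of the 25 ecdysone cascade genes 17 had a weaker peak (68.0%) and 2 had no IDR peak beside it (8%). Eip75B, an early ecdysone-induced nuclear receptor gene, had 14 beside 24 IDR peaks, and the strongest, 11 bp from the start of lncRNA:CR45922, had 51.1 in replicate 3 and 31.7 in replicate 4 with both summits 5 bp away. Among 24 EGF and FGF pathway genes 15 had a weaker peak (62.5%) and 6 had no IDR peak (25%). stumps, the adaptor of FGF signalling, had 3 weaker peaks and no IDR peak. The strongest had 82.0 in the pool, 45.7 in replicate 3 and 40.1 in replicate 4. It lay 2003 bp from the stumps start site and 673 bp from that of CG7987. The peak counted for the EGF receptor ligand gene grk lay in the promoter of Akap200. In the Hippo pathway 12 of 19 genes had one (63.2%), among them ds, kibra and wts, and 3 had no IDR peak (15.8%). In the Notch pathway 7 of 26 had one (26.9%), of which only dx had no IDR peak (3.85%), with 3 weaker peaks up to 79.8. The strongest dx peak lay 8501 bp from the dx start site and 1729 bp from that of CG34417. Gene length was not adjusted for in these counts.

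Germline and testis genes had weaker peaks mostly without IDR peaks. Of 20 such genes 10 had a weaker peak and 7 had no IDR peak beside it (35.0%, background 8.14%). can, a testis-specific TAF homologue, had 1 at 79.3 with 33.3 in replicate 3 and 44.1 in replicate 4, 748 bp from its start site. bam, the germline differentiation gene that BMP signalling represses in the ovary, had 2 overlapping entries, the stronger at 77.0 with 32.4 in replicate 3 and 42.7 in replicate 4, 470 bp from the start site. Mst87F, a sperm gene, had a promoter peak at 79.5, beside 1 IDR peak at 88.8. Of 8 Hox genes 4 had a weaker peak and 3 had no IDR peak (37.5%, background 8.14%), with Abd-B at 78.8 and both summits within 50 bp. Of 20 heat shock genes 5 had a weaker peak (25%) and of 16 salivary gland genes 2 had one (12.5%), against a background of 20.5%. All of these also had an IDR peak, so 0% of both lists had a weaker peak only (background 8.14%). In lists of this size no difference from that background can be read. The 3 heat shock genes Hsp23, Hsp26 and Hsp27 counted the same strongest peak. The lists are small and were read against the background share without a test.

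**Figure D5:**
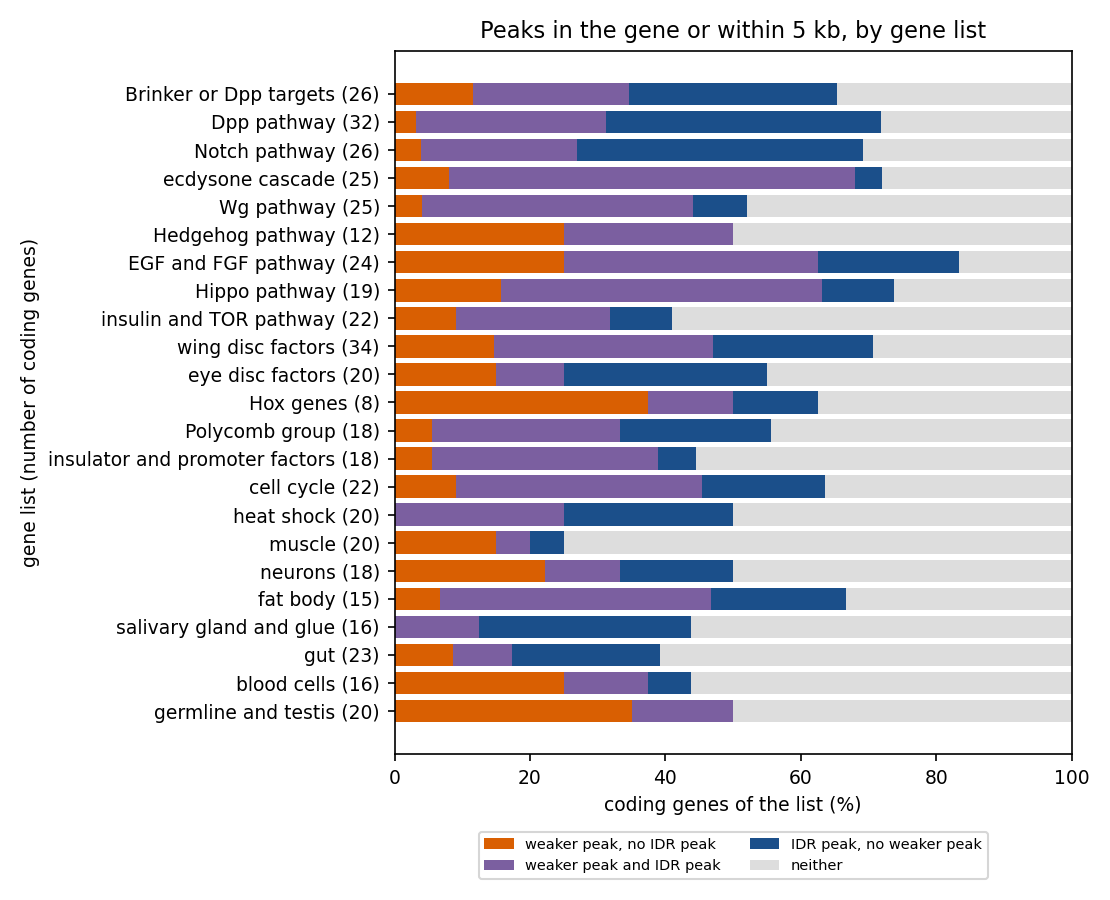
Share of the coding genes of each of 23 lists (x axis, percent; number of genes in brackets) with a weaker peak and no IDR peak, with both, with an IDR peak only and with neither, counted in the gene or within 5000 bp. Across all coding genes the first share was 8.14%. The Hox and the germline and testis lists reached 37.5% and 35.0%. The heat shock and salivary gland lists, of only 20 and 16 genes, had none.

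Single genes from the other lists showed how such peaks sat. foxo, the transcription factor of insulin signalling, had a promoter peak at 80.5 with 58.0 in replicate 3 and 26.5 in replicate 4, 544 bp from an IDR peak. The eye gene eya had 2 overlapping weaker entries up to 81.4 and no IDR peak, with 45.7 in replicate 3 and 41.7 in replicate 4, and the wing gene nub had 2 up to 74.97 and no IDR peak. Su(z)2, a Polycomb group gene, had 4 up to 75.2, the strongest 80 bp from its start site. Of 20 muscle genes only 4 had a weaker peak, close to the background share, and 15 had neither kind of peak. Tm1 had 3 up to 73.2 and how had 2 up to 69.4, both without an IDR peak, and Mlp84B had 1 at 64.8 beside an IDR peak at 290.04. The blood cell genes Hml and atilla had 75.4 and 79.9 as their strongest weaker peak, also without an IDR peak. The Hml summit was 16578 bp from its own start site and 4273 bp from that of CG8745. The atilla summit was 5088 bp from its own start site and 78 bp from that of CG6583, so the assignment to atilla rests on distance alone.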

How the data were processed

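Brinker-eGFP ChIP-seq peak lists of 2 larval replicates and of their pool were used. Per the deposited sample notes, the replicate and pooled lists hold peaks and background called with a control alignment on dm6, and a further list holds peaks kept after IDR thresholding. Caller, aligner, IDR threshold and read depth were not given in the sources used here. Deposited signal values per entry have no stated scale, the deposited −log10 q column was read as the narrowPeak layout defines it, and the summit offset gave the summit. Lists on dm3 were not used.

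Classes came from Ensembl release 115 (BDGP 6.54), in the order promoter, untranslated, coding and noncoding exon, intron, intergenic; sequence came from RefSeq Release 6. Shares were compared with Fisher's exact test and summits with flanks by McNemar's exact test, with Benjamini-Hochberg adjustment, in Python 3.11.15 with scipy 1.17.1, pandas 2.3.3 and numpy 2.4.6; the functions were tested on simulated data. The members and gene lists were chosen with earlier results of these data known. Of the list names 2 matched no gene and 25 matched through a synonym. Named genes are those of the 25 strongest weaker peaks, of the target and pathway lists, the 3 strongest of each other list, and the 5 with most weaker peaks. Alternatives varied the number of replicate entries, the replicates required, the summit match, the distance to IDR peaks, overlapping entries, the promoter, window and flank sizes, the GC match and the gene assignment. The −log10 values and signals are the authors' and describe peaks only.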

Additional observations from a re-analysis of the deposited data

How the results depend on the processing

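Recomputing the 9 main values under the alternatives that apply to each gave 95 values, of which 67 kept direction, side of the threshold and, for counts, a size within 1.5 times. The promoter share against IDR peaks kept its direction and threshold in all 11 of its alternatives, from -20.3 to -6.79 points. With the strongest 5000 replicate entries 371 weaker peaks remained, at 476 coding genes and 146 without an IDR peak; the X difference then passed the threshold at -4.24 points, the summit-to-flank motif difference was -0.81 points and no longer passed (exact test, adjusted p = 1), and the motif difference from IDR peaks turned to 4.07 points (exact test, adjusted p = 0.184). With 15000 entries the counts were 6717 weaker peaks and 1797 genes without an IDR peak, and the X difference was 0.64 points. Requiring only 1 replicate moved the counts by construction, to 6243 weaker peaks without replicate 4 and 7285 without replicate 3, with 4105 to 4397 coding genes, 1767 to 1990 genes without an IDR peak and X differences of 0.00023 to 1.60 points. Requiring replicate summits within 100 bp gave 1751 peaks and an X difference of 0.35 points. The X difference was 0.20 points with 1 peak per run, chosen after seeing the data, and 0.17 points against the weakest 676 IDR peaks. A window of 50 bp gave a motif difference from IDR peaks of 0.56 points, and GC-matched flanks a summit-to-flank difference of 0.83 points. At or above the weaker median signal, also chosen after seeing the data, the promoter difference from the remaining entries was -6.47 points and the difference in proximity to IDR peaks 1.93 points. Assigning peaks to the gene of the nearest start site gave 1442 coding genes and 746 without an IDR peak, and to start sites within 1000 bp 950 and 627. The cause of these shifts was not tested, apart from the sizes that follow from fewer or more entries. The lists give no read depth, so counting error per peak is unknown.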

Other observations

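Some weaker peaks lay at transfer RNA genes inside larger loci. In the tkv region 2 overlapping entries, at 74.0 and 48.9 in the pool, lay 149 and 93 bp from the start of tRNA:Asp-GTC-1-1, with the same replicate signals of 39.8 in replicate 3 and 30.4 in replicate 4. In the dlp region an entry at 42.3 lay 336 bp from tRNA:iMet-CAT-1-4, with 26.6 in replicate 3 and 26.8 in replicate 4. These entries were counted for tkv and dlp by distance, and they are given as values only, noticed after the peaks had been seen.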
